A study of Mus musculus with 21 samples.

Results

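The 10 genes Ltf, Ngp, Camp, S100a8, S100a9, Elane, Mpo, Prtn3, Crisp3 and Retnlg encode proteins that neutrophil granulocytes and their precursors store in granules, hold in the cytosol or secrete. They were chosen by gene symbol with their measured levels over time in these libraries already known, and they are 10 of the 23250 genes in the deposited table. The question put to them was whether the transcripts of a granulocytic fraction decline with time in culture. Since their differences from the untreated cells, and between 4 h and 24 h, belong to what chose them, those values are given here as a description with no test. The contrast of FcMR with isotype at each time is tested.

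The study measured mRNA in bone-marrow-derived macrophages of C57BL/6J background, grown from flushed marrow for 7 days in medium that held GM-CSF from a producing cell line. All cells lacked the mannose receptor (MR, gene Mrc1), a C-type lectin, and the study asked how the soluble receptor acts on macrophages. The 21 libraries form 7 groups of 3. One group was untreated (0 h). FcMR, in which the Fc part of human IgG1 is joined to the extracellular region of the MR, was given to 3 groups and an isotype control to 3 others, harvested after 4 h, 12 h and 24 h. The untreated group exists at 0 h only, so time in culture after day 7 and exposure to the control protein cannot be told apart. The labels do not say whether the libraries of a group came from separate mice or dishes. The p-values therefore measure only the spread between these libraries, which may be technical.

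Neutrophils load their granules in sequence while they mature in the marrow. Promyelocytes make the contents of primary (azurophil) granules: the serine proteases neutrophil elastase (Elane) and proteinase 3 (Prtn3), and the haem enzyme myeloperoxidase (Mpo). Myelocytes and metamyelocytes then make the contents of secondary (specific) granules, among them the iron-binding protein lactoferrin (Ltf), the cathelicidin precursor (Camp), neutrophilic granule protein (Ngp) and a cysteine-rich secretory protein (Crisp3). S100a8 and S100a9 form calprotectin, a calcium- and zinc-binding heterodimer abundant in the cytosol of neutrophils and made by monocytes too. Retnlg encodes a resistin-like secreted protein of marrow granulocytes. GM-CSF supports granulocyte precursors as well as macrophages, so marrow cultures grown in it can hold both.

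The deposited counts summed to between 5532225 and 66729533 per library. As CPM, counts scaled to a common library size, 3 counts corresponded to between 0.0450 and 0.542. Mrc1 itself had 0 to 11 counts per library. Macrophage markers were abundant in the untreated cells, where the means were 208 CPM for Adgre1 (F4/80), 820 CPM for Csf1r and 394 CPM for Cd68. Libraries differed in a way their groups do not explain: a GC tilt, the mean log2 deviation of the 10% most GC-rich tested genes from their own means minus that of the 10% most GC-poor, ran from −1.58 to 0.82 over the libraries. The isotype 4 h replicate 3 had a tilt of 0.641 against −0.825 and −1.58 in the other 2 libraries of its group, and the FcMR 12 h replicate 1 had −0.722 against 0.722 and 0.80. The library numbers that open the titles of these 2 libraries stand in each other's place in the series. Results that rest on them are given with and without them.

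The upstream sequences of 5 of the genes are shown as examples, each with a C/EBP core in the stretch printed. C/EBP factors, with PU.1, are the textbook activators of granule genes in granulocyte precursors. The stretches below end immediately before the annotated start of each gene in GENCODE M21 and read 5′ to 3′ on the gene's strand. They are cut from the 250 bases before RefSeq's start, build GRCm38.p6. For S100a8, Ltf and Ngp the bases from there to RefSeq's start are left out, which in S100a8 hold a further PU.1 core. Capitals mark the C/EBP core (ATTGC, or GCAAT on the other strand) and the PU.1 core (GAGGAA, or TTCCTC on the other strand).
S100a8: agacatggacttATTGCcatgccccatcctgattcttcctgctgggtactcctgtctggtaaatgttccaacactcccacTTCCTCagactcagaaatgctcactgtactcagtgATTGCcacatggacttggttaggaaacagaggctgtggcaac
S100a9: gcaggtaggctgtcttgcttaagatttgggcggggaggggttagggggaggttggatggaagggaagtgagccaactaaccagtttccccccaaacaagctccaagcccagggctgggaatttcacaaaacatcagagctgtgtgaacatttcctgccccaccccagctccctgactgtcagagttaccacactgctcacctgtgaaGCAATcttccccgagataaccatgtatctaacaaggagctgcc
Ltf: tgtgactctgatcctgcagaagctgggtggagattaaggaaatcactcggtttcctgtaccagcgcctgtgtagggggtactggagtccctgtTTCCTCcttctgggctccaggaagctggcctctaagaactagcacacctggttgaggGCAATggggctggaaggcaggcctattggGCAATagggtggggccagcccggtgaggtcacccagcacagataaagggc
Ngp: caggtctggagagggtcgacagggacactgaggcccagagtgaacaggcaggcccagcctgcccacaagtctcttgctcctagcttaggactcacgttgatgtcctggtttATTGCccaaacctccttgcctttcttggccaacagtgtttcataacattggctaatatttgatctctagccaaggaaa
Crisp3: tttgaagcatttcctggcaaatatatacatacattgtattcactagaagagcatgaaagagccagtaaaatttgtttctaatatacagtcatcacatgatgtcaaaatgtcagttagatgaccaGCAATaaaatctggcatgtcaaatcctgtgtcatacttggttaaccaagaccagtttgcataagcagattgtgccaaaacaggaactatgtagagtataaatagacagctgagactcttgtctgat

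These stretches are chr3:90668821-90668977 on the plus strand for S100a8, chr3:90695722-90695971 on the minus strand for S100a9, chr9:111019042-111019270 on the plus strand for Ltf, chr9:110419558-110419746 on the plus strand for Ngp, and chr17:40242289-40242538 on the minus strand for Crisp3. S100a8 and Ltf each hold 2 C/EBP cores and 1 PU.1 core in the printed stretch, and the other 3 hold 1 C/EBP core each. In the 250 bases before the RefSeq start, 9 of the 10 genes had a C/EBP core, against 23.1% of 32851 RefSeq promoters searched the same way on both strands. Prtn3 was the gene without one. In Camp, Elane and Mpo the C/EBP core lay after the gene start annotated in GENCODE M21, not before it. The PU.1 core stood in 5 of the 10 windows, against 23.3% of all. The 2 motifs do not overlap in any of the printed stretches. A match describes letters in a window and does not show that a factor binds there.

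In the genome (GRCm38) the genes fall into small groups. S100a8 lies at chr3:90668978-90670035 and S100a9 at chr3:90692632-90695721, in the S100 gene cluster and on opposite strands. Camp (chr9:109847379-109849617), Ngp (chr9:110419747-110423012) and Ltf (chr9:111019271-111042767) lie within one stretch of chromosome 9, and Prtn3 (chr10:79874476-79883174) and Elane (chr10:79886247-79888215) are neighbours. Mpo lies at chr11:87793581-87804413, Retnlg at chr16:48872621-48874496 and Crisp3 at chr17:40221777-40242288. Of the 31-base words of their transcripts, 10.5% in Crisp3 also occur in other genes (Crisp1 among them), 5.51% in Retnlg (shared with Retnla), 0.46% in Mpo and 0 in the others, so the assignment of reads is less certain for Crisp3 and Retnlg. Mpo and Prtn3 each overlap a gene on the other strand, and whether the counting was stranded is not given in the labels.

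Untreated macrophage cultures contained transcripts of all 10 genes, at very different levels. Per kilobase of the longest transcript, the untreated mean was 1364 CPM for S100a9, 819 for S100a8 and 216 for Ngp. It was 29.5 for Ltf, 24.8 for Camp and 10.4 for Retnlg, and lowest for Crisp3 (7.90), Elane (5.53), Prtn3 (4.28) and Mpo (2.42). In CPM not divided by length, the calprotectin pair made up 73.2% to 74.6% of the sum of the 10 genes in the untreated libraries. Summed over the 10 genes, the level was 1513 ± 118 CPM (SD, n = 3) in untreated cells. It was 196 CPM on average after 24 h with isotype and 218 CPM after 24 h with FcMR, which is 7.73-fold and 6.95-fold lower.

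**Figure D1:**
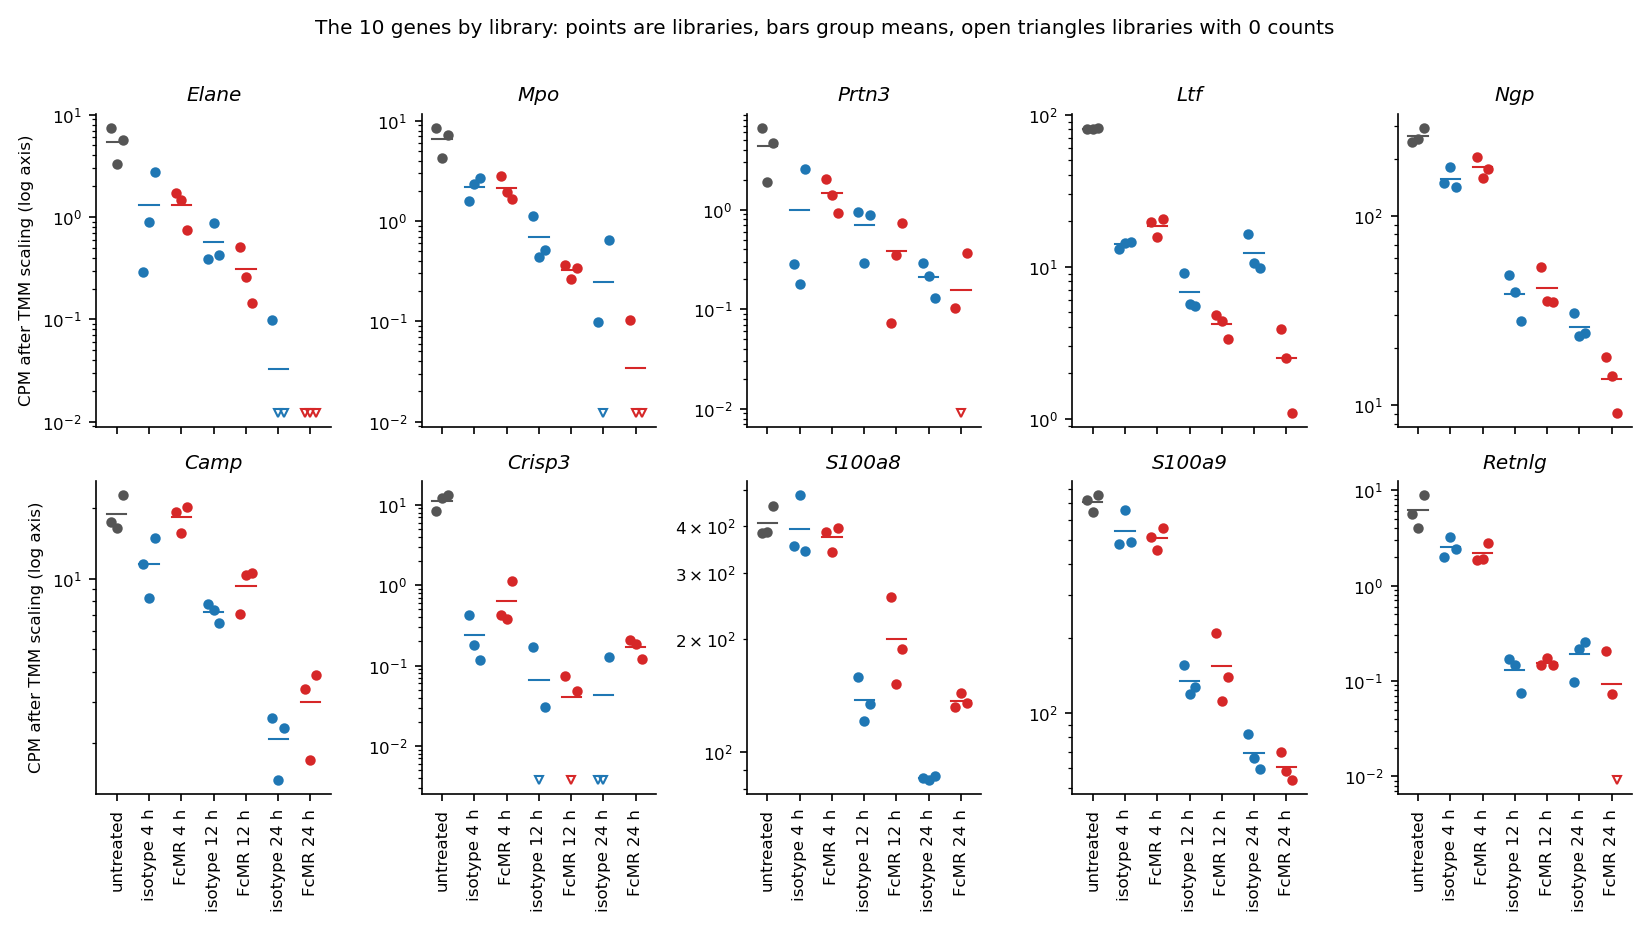
Level of each of the 10 genes in every library, in CPM on a log axis, with 1 point per library and a bar for the mean of each of the 7 groups of 3; a library with no count is drawn as an open triangle at the foot of the axis. S100a8 and S100a9 stay above 50 CPM in all libraries, while Elane was at 0 in all 3 FcMR 24 h libraries.

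The 3 genes of primary granules had low levels even at the start. Elane was at 7.39, 3.31 and 5.64 CPM in the untreated libraries (76, 72 and 69 counts). After 4 h it was at 0.287, 0.902 and 2.78 CPM with isotype and at 1.70, 1.47 and 0.745 CPM with FcMR. All treated libraries were below all untreated libraries. After 24 h, 1 count remained in the 3 isotype libraries together and 0 in the 3 FcMR libraries. Against the floor of 3 counts over the group, Elane was at least 73.8-fold lower with FcMR at 24 h than in untreated cells. With isotype at 24 h the ratio of the pooled levels was 134, with a 95% exact counting interval of 23.8 to 5308.

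Mpo followed the same course. It was at 8.45, 4.28 and 7.19 CPM in untreated cells and at 1.58, 2.35 and 2.67 CPM after 4 h with isotype. After 12 h with isotype it was at 1.12, 0.44 and 0.515 CPM. With isotype its log2 difference from untreated cells was −1.58 ± 0.483 (SE) after 4 h. It reached −3.22 ± 0.508 after 12 h and −4.83 ± 0.637 after 24 h. The 24 h value rests on 6 counts, 5 of them in replicate 3, and was −6.77 without that library. With FcMR it was −1.59 ± 0.465 at 4 h and −4.30 ± 0.562 at 12 h. Only 1 Mpo count was left in the FcMR 24 h group, a ratio to untreated cells of 273 (95% exact counting interval 48.6 to 10830).

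Prtn3 varied more among replicates than the other 2. It was at 6.61, 1.89 and 4.66 CPM in untreated cells, and at 0.287, 0.18 and 2.55 CPM after 4 h with isotype, so these groups overlapped. The isotype 4 h replicate 3, one of the 2 libraries with numbers out of order, held 22 of the 25 Prtn3 counts of its group. The log2 difference from untreated cells at 4 h was −1.97 ± 0.765 with that library and −4.13 without it. For Elane, which that library also carried at the highest level of its group, the value was −1.96 ± 0.579 with it and −3.22 without it. By 24 h Prtn3 was −4.26 ± 0.937 with isotype and −5.32 ± 1.01 with FcMR, from 6 and 4 counts. The FcMR value was −4.17 without replicate 2 and −6.85 without replicate 3. Summed over the 3 genes, the mean level was 16.5 CPM in untreated cells, and the isotype groups had 4.53, 1.97 and 0.492 CPM in order of time. With FcMR it was 4.92, 1.01 and 0.190 CPM.

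The genes of secondary granules did not share one time course. Ltf was the most even gene in untreated cells, at 80.1, 81.1 and 81.7 CPM. After 4 h it was already at 13.1, 14.4 and 14.6 CPM with isotype and at 19.6, 15.8 and 20.7 CPM with FcMR, below all untreated libraries. With isotype it was lowest at 12 h (9.03, 5.72 and 5.56 CPM) and stood at 16.4, 10.5 and 9.78 CPM at 24 h. The isotype groups at 4 h and 24 h overlapped, with a log2 difference of −0.19 ± 0.266. With FcMR it was lower at each later time: 4.84, 4.37 and 3.35 CPM at 12 h, then 3.91, 2.50 and 1.10 CPM at 24 h. The log2 difference between 24 h and 4 h with FcMR was −2.86 ± 0.293.

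Ngp was nearer its untreated level at 4 h than Ltf was. Its untreated values were 245, 255 and 291 CPM. At 4 h they were 149, 180 and 142 CPM with isotype and 206, 160 and 178 CPM with FcMR. The 12 h libraries lay between 27.8 and 54.0 CPM. At 24 h Ngp was at 30.9, 23.3 and 23.9 CPM with isotype and at 18.1, 14.2 and 9.14 CPM with FcMR. Its log2 difference from untreated cells with isotype was −0.75 ± 0.222 after 4 h, then −2.77 ± 0.237 (12 h) and −3.34 ± 0.245 (24 h). The groups did not overlap with the untreated group at any of these times.

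Camp had the smallest differences of the 4 secondary granule genes at 12 h. It was at 17.4, 16.3 and 22.6 CPM in untreated cells and at 19.1, 15.6 and 20.1 CPM after 4 h with FcMR, which overlapped. With isotype at 4 h it was at 11.5, 8.30 and 14.8 CPM, below all untreated libraries. By 12 h the log2 difference was −1.39 ± 0.260 with isotype and −1.01 ± 0.256 with FcMR. At 24 h it was −3.16 ± 0.305 and −2.73 ± 0.288. The 24 h values were 2.55, 1.39 and 2.32 CPM with isotype and 3.39, 1.69 and 3.90 CPM with FcMR.

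Crisp3 had the largest difference of the 10 genes at 4 h. It was at 8.26, 12.2 and 13.1 CPM in untreated cells and at 0.431, 0.18 and 0.116 CPM after 4 h with isotype, a log2 difference of −5.51 ± 0.563 (−6.24 without replicate 1). With FcMR at 4 h it was at 0.425, 0.376 and 1.12 CPM, a log2 difference of −4.38 ± 0.476. Later groups held 8 counts at most, with 1 count in the isotype 24 h group, where the ratio to untreated cells was 315 (95% exact counting interval 56.3 to 12470). Retnlg lay between these courses. It was at 5.64, 4.00 and 8.83 CPM in untreated cells, then at 2.01, 3.25 and 2.43 CPM at 4 h with isotype and at 1.84, 1.88 and 2.80 CPM with FcMR. From 12 h on no library exceeded 0.258 CPM. Its log2 difference from untreated cells at 12 h was −5.73 ± 0.462 with isotype and −5.24 ± 0.451 with FcMR. The isotype value was −5.14 without replicate 3, which held 5 of its 9 counts.

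**Figure D2:**
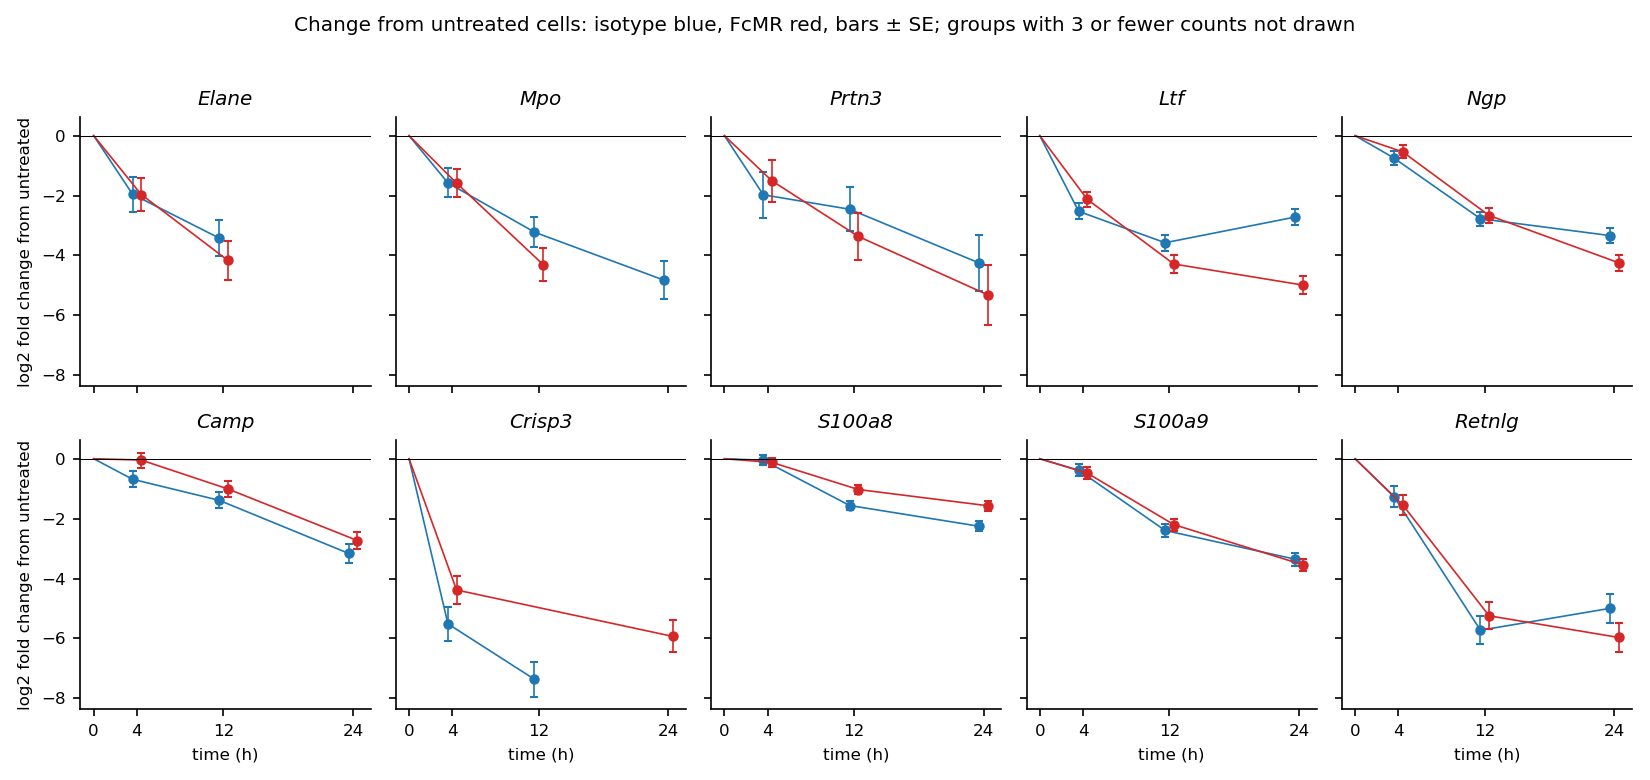
Log2 difference of each gene from the untreated group at 4 h, 12 h and 24 h, with isotype and with FcMR, as edgeR estimates with bars of 1 SE from 3 libraries a group; groups with 3 or fewer counts are not drawn. At 4 h Crisp3 (−5.51) and Ltf (−2.53) are far below 0 with isotype while S100a8 (−0.05) is near it, and Ltf with isotype stands at −3.58 at 12 h and −2.72 at 24 h.

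The calprotectin genes kept the highest levels of the 10 throughout. S100a8 was at 384, 387 and 453 CPM in untreated cells and at 354, 483 and 343 CPM after 4 h with isotype. At 4 h with FcMR it was at 387, 341 and 395 CPM, and all 3 groups overlapped. With isotype it was then at 158, 121 and 135 CPM at 12 h and at 85.3, 84.5 and 86.5 CPM at 24 h. With FcMR it was at 259, 152 and 189 CPM at 12 h and at 132, 144 and 136 CPM at 24 h. The log2 difference from untreated cells at 24 h was −2.26 ± 0.169 with isotype and −1.57 ± 0.164 with FcMR.

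By these estimates S100a9 was further below its untreated level than S100a8 at every time, a difference that was not tested. It was at 725, 646 and 754 CPM in untreated cells, and at 481, 660 and 487 CPM at 4 h with isotype. By 24 h it was at 82.4, 65.7 and 59.7 CPM with isotype and at 69.6, 58.3 and 53.9 CPM with FcMR. These are log2 differences of −3.35 ± 0.213 and −3.55 ± 0.214. The number of S100a8 counts per S100a9 count therefore differed between groups. This ratio was chosen after its values were seen and is given without a test. It was 0.530, 0.599 and 0.601 in untreated cells and 0.737, 0.732 and 0.704 at 4 h with isotype. At 24 h it was 1.04, 1.29 and 1.45 with isotype and 1.90, 2.47 and 2.52 with FcMR. The 3 FcMR libraries were above the 3 isotype libraries at 12 h (1.23, 1.36 and 1.34 against 1.01, 1.01 and 1.06) and at 24 h.

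**Figure D3:**
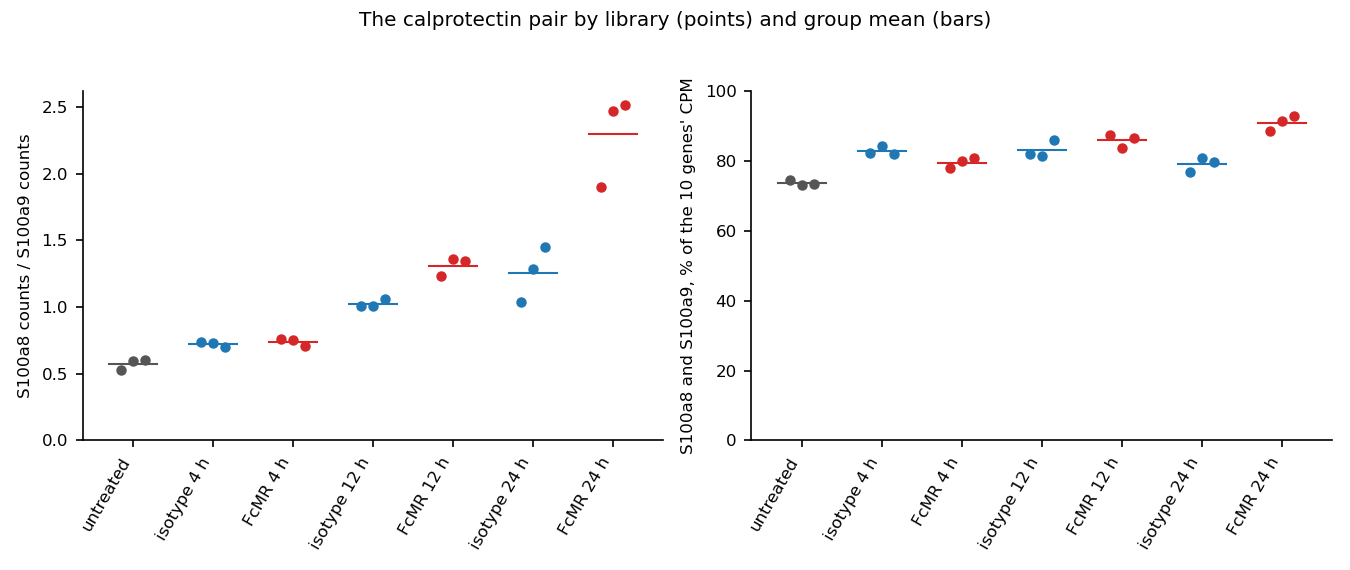
Left, the number of S100a8 counts per S100a9 count; right, the share of S100a8 and S100a9 in the summed CPM of the 10 genes, in percent; points are libraries and bars are means of the 3 libraries of each group. The ratio is at most 0.601 in untreated cells and between 1.90 and 2.52 with FcMR at 24 h, where the share is 88.6% to 92.8%.

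Counted over the 10 genes, 7 lay below the untreated group without overlap at 4 h with isotype and 7 with FcMR, where 18.7% and 35.8% of all 13468 tested genes did so. At 12 h and at 24 h all 10 did, with either protein, against 29.3% and 32.8% of genes with isotype and 28.1% and 28.6% with FcMR. From 4 h to 24 h, 7 genes were lower without overlap with isotype, against 25.4% of genes, and 10 with FcMR, against 27.2%. These counts belong to what chose the genes, and nothing is read from them. All 10 passed the filter on low counts, Crisp3 only through the untreated group. In bulk samples, fewer cells of a type and less RNA per cell cannot be told apart.

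The genes were then compared between FcMR and isotype, a contrast that the choice did not use. Ltf was 4.83-fold lower with FcMR than with isotype at 24 h, the largest of the differences that passed. Ngp was 1.88-fold lower and S100a8 1.61-fold higher. At 12 h S100a8 was the 1 gene that passed. The edgeR quasi-likelihood test with Benjamini-Hochberg adjustment over 13468 genes called 0 of 10 at 4 h, 1 of 10 at 12 h and 3 of 10 at 24 h. It called 17.7%, 16.1% and 20.9% of all genes at these times, and the counts over the 10 genes are read only against these shares. At 4 h 1 of the 10 had an unadjusted p under 0.05, and DESeq2 called 1.

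Ltf at 24 h had a log2 difference of −2.27 ± 0.296 (SE) with an adjusted p of 1.73e-05 in edgeR, and the FcMR and isotype libraries did not overlap. Its difference had been 0.40 ± 0.261 at 4 h (adjusted p = 0.333), where the 3 FcMR libraries lay above the 3 isotype libraries, and −0.71 ± 0.276 at 12 h (adjusted p = 0.0974), where they lay below. The joint edgeR test of whether the FcMR effect differed between the 3 times called 1 of the 10 genes, against 11% of all genes, and this gene was Ltf. Its effect at 24 h minus that at 4 h was −2.67 on the log2 scale (adjusted p = 0.0007605). As the per-library values above show, Ltf with isotype stood higher at 24 h than at 12 h while Ltf with FcMR did not. Ngp had a change of −1.12 (adjusted p = 0.0544) and S100a8 one of 0.76 (adjusted p = 0.0704) in the same test.

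Ngp at 24 h had a log2 difference of −0.91 ± 0.241 (adjusted p = 0.0107 in edgeR), and all 3 FcMR libraries were below all 3 isotype libraries. Without the isotype 24 h replicate 1, its highest isotype library, the difference was −0.75 and the adjusted p 0.0706. At the earlier times the difference was 0.21 ± 0.222 and 0.11 ± 0.226. S100a8 at 24 h had a log2 difference of 0.69 ± 0.163 (adjusted p = 0.005 in edgeR), with all 3 FcMR libraries above all 3 isotype libraries. At 12 h it was 0.53 ± 0.161 (adjusted p = 0.0293), but the groups overlapped. Leaving out the FcMR 12 h replicate 1, the other library with a number out of order, gave 0.30 and an adjusted p of 0.252. Leaving out the isotype 12 h replicate 2 or 3, or the FcMR 12 h replicate 3, gave adjusted p values of 0.151, 0.102 and 0.0531. At 4 h the difference was −0.07 ± 0.160.

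S100a9, the partner of S100a8, did not pass at any time. In order of time its log2 differences were −0.10 ± 0.193, 0.20 ± 0.194 and −0.20 ± 0.198, and the difference between the effects on the 2 genes was not tested. Camp had positive differences at all 3 times: 0.64 ± 0.263 at 4 h, without overlap (adjusted p = 0.105), 0.38 ± 0.261 at 12 h and 0.43 ± 0.333 at 24 h. Without the isotype 4 h replicate 3, Camp at 4 h passed (0.87, adjusted p = 0.0388). For Elane, Mpo, Prtn3, Crisp3 and Retnlg the standard errors at 4 h ran from 0.363 to 0.798, so differences of that size were not detectable. Prtn3 at 4 h depended on the isotype 4 h replicate 3: its difference was 0.47 ± 0.798 with that library and 2.63 without it (adjusted p = 0.0778 in edgeR). Without both libraries with numbers out of order it was 2.63 and was called (adjusted p = 0.04997 in edgeR). Elane at 4 h was −0.01 ± 0.611 with that library and 1.26 without it (adjusted p = 0.194 in edgeR). At 24 h Mpo rested on 1 count with FcMR and 6 with isotype, and Crisp3 on 8 and 1. Elane was at or below the floor of 3 counts in both groups.

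Over the 10 genes the FcMR and isotype libraries did not overlap for 2 genes at 4 h (Ltf and Camp, higher with FcMR), against 29.7% of all genes. At 12 h they did not overlap for 2 genes (Ltf and Mpo, lower), against 35.4%. At 24 h they did not overlap for 3 genes (Ltf and Ngp lower, S100a8 higher), against 34.4%. The GC tilt was −0.378, −1.30 and 0.398 in the FcMR 24 h libraries and between −0.100 and −0.0525 in the isotype 24 h libraries. With levels corrected for transcript GC content, the 24 h differences were −2.22 for Ltf, −0.94 for Ngp and 0.60 for S100a8, and edgeR called each. No call at 24 h was lost when any 1 library was left out, apart from that of Ngp.

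**Figure D4:**
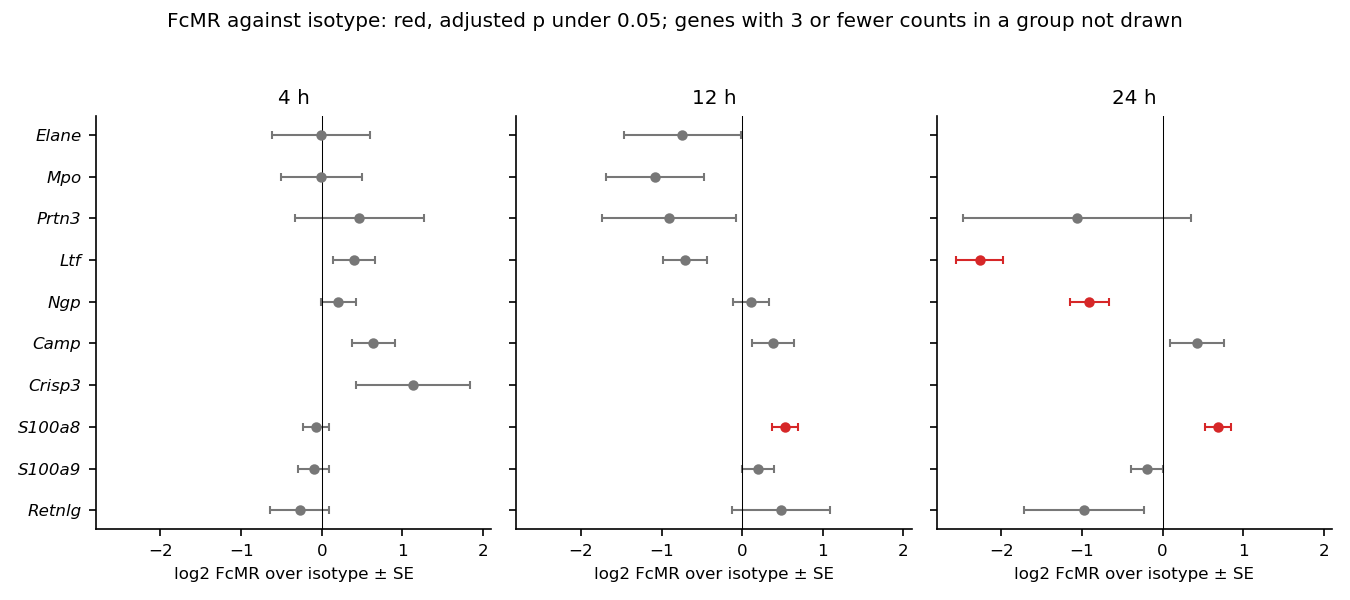
Log2 difference of FcMR from isotype at 4 h, 12 h and 24 h for each gene, as edgeR estimates with bars of 1 SE from 3 libraries a group, with genes that passed an adjusted p of 0.05 marked; comparisons where a group had 3 or fewer counts are not drawn. Ltf moves from 0.40 at 4 h to −2.27 at 24 h, while Camp and S100a8 lie above 0 at 24 h.

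Likeness between the genes was described by Pearson's r of log2 CPM over the 7 group means, which share libraries and the untreated group, so no p is given. Among the 10 genes r ran from 0.61 between Ltf and Camp to 0.988 between Ngp and S100a9. The genes outside the 10 most like Ltf were Slc35b2 (0.994), Ifitm6 (0.992) and Flvcr2 (0.990). Ifitm6 was at 11.4 CPM in untreated cells, 1.79 CPM with isotype at 24 h and 0.412 CPM with FcMR at 24 h. Those most like Ngp were Ccl6 (0.995), Zfp384 (0.993) and Pdlim1 (0.993). For Camp they were Gm11870, Klrg2 and Fcnb (0.990), and Fcnb encodes ficolin B of myeloid cells. For S100a8 they were Fkbp1a, Mark3 and Gm18310, and for S100a9 Gm5483 (0.996), Cyp4a12a and Insig1. Elane was most like Iba57, Rps10 and Rps23, Mpo like Neb, Proz and Iba57, and Prtn3 like Rack1, Rps14 and Rps16-ps2. Crisp3 was most like Fosb (0.991), Syt6 and Tead1, and Retnlg like Rpl36a (0.997), Rps23-ps1 and Rpl23.

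Other genes listed for the neutrophil lineage were called lower after 24 h with isotype more often than higher. Their summed level, set mainly by the most abundant genes, was higher. Of 37 tested genes in 3 lists (primary granule and promyelocyte genes, secondary and tertiary granule genes, mature neutrophil genes), edgeR called 23 lower and 8 higher than in untreated cells, where 42.2% of all genes were called and 20.9% were called lower. Their median log2 difference was −1.33, against −0.04 over all genes. The summed level of the 3 lists ran from 26210 to 27080 CPM untreated and from 32600 to 36700 CPM at 24 h with isotype. Most of it came from the secondary and tertiary granule list (25160 to 26020 CPM, then 31910 to 35990 CPM). Of the 14 genes tested in that list, 7 were called lower and 4 higher, with a median log2 difference of −0.88. The primary granule list was higher too (260 to 301 CPM, then 459 to 476.5 CPM). The mature neutrophil list was lower (774 to 800 CPM, then 229 to 238 CPM), and Il1r2 made up most of its untreated sum. Of its 15 genes, 11 were called lower and 2 higher. Il1r2, the decoy receptor for interleukin-1, fell by 6.62 on the log2 scale from 438 CPM (adjusted p = 3.361e-14 in edgeR), and Pglyrp1, a peptidoglycan-binding granule protein, fell by 3.90. Prss57, a primary granule protease, was at 0 in all isotype 24 h libraries and at least 15.8-fold lower. Ly6g, the surface marker of mouse neutrophils, fell by 4.71 from 6.84 CPM, and Cebpe, the C/EBP factor of late granulocyte precursors, fell by 3.20. Not all moved this way: Cst7, the protease inhibitor cystatin F, rose by 2.63, Hp (haptoglobin) by 2.35 and Fpr2, a formyl peptide receptor, by 0.98. After 24 h with FcMR, 22 of the 37 were lower and 11 higher than in untreated cells, against 25.4% of all genes lower. The 2 comparisons share the untreated libraries. These lists and those in the paragraphs below were chosen with earlier results of these data known. Counts over them are therefore a description only.

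Between FcMR and isotype, calls among these 37 genes were in 1 direction at 4 h and in both later. After 4 h edgeR called 10 higher and 0 lower with FcMR, after 12 h it called 13 higher and 4 lower, and after 24 h 14 higher and 8 lower. These are 27.0%, 45.9% and 59.5% of the 37, where 17.7%, 16.1% and 20.9% of all genes were called. The median log2 difference at 24 h was 0.21, against 0.01 over all genes. At 24 h Fpr2 rose by 2.62 on the log2 scale (means of 50.03 CPM with isotype and 307 CPM with FcMR), Chil1, a chitinase-like protein, by 2.41 and Cst7 by 2.34. Mmp8, the neutrophil collagenase, fell by 1.47 and Padi4, the enzyme that citrullinates histones in neutrophils, by 1.27. Lcn2, a siderophore-binding protein that is stored with Ltf in neutrophils but is made by stimulated macrophages too, was 2.39 higher (73.0 against 382 CPM), while Ltf was lower.

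Of the genes that handle granule proteases, 3 of 8 were higher and 2 lower with isotype at 24 h than untreated. In that comparison 42.2% of all genes were called. Slpi, a secreted inhibitor of elastase, rose by 1.11 with isotype and by a further 2.23 with FcMR, while Stfa2, a stefin, fell by 4.55 with isotype. Of 10 other S100 genes and calprotectin receptors tested, 3 were higher and 3 lower with isotype at 24 h. With FcMR at 24 h, 6 of the 10 were lower than with isotype and 0 higher, where 20.9% of all genes were called. Among the 6 were Cd36, a scavenger receptor (−1.27), and S100a6 (−1.24). S100a8 was higher in the same comparison. Tlr4, a receptor for calprotectin, had a difference of 0.03 (adjusted p = 0.949 in edgeR).

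Markers of other granulocytes moved with the 10 genes over time. Of 9 eosinophil markers, 7 were lower and 0 higher with isotype at 24 h than untreated, and 8 were lower with FcMR. Of all genes, 20.9% were called lower with isotype at 24 h and 25.4% with FcMR. The median of the eosinophil markers with isotype was −1.37. Epx, the eosinophil peroxidase, fell by 4.54 from 119 CPM and Prg2, the major basic protein, fell by 2.998 from 552 CPM. The summed level of the 9 ran from 991 to 1217 CPM in untreated libraries, from 364 to 500 CPM at 12 h with isotype and from 199 to 264 CPM at 24 h with isotype. With FcMR at 24 h it ran from 194 to 239 CPM. Of 8 basophil and mast cell markers tested, 7 were lower and 0 higher with isotype at 24 h, with a median of −1.63. Cpa3, a mast cell protease, fell by 2.26. Their sum went from between 55.5 and 57.1 CPM to between 18.4 and 21.4 CPM. Between FcMR and isotype at 24 h, 1 eosinophil marker was lower (Siglecf, −2.13) and 1 basophil and mast cell marker was higher (Kit, 1.07).

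Macrophage markers went the other way with isotype. Of 10 tested, 7 were higher and 1 lower at 24 h than untreated, with a median of 0.70, where 42.2% of all genes were called. Adgre1 rose by 2.005 and Cd14 fell by 0.92. The sum of the macrophage markers ran from 3910 to 4024 CPM untreated and from 6548 to 6893 CPM at 24 h. Of 9 monocyte markers, 3 were higher and 5 lower, of which Cx3cr1 rose by 1.95. Dendritic cell markers were split, with 4 higher and 4 lower of 10. Of 8 genes of cycling cells 4 were lower and 0 higher, and of 7 lymphocyte markers 1 was higher and 1 lower. Of 6 erythroid and megakaryocyte markers tested 1 was higher and 2 lower, and of 5 stromal markers 3 were lower. Between FcMR and isotype at 24 h, when Ltf and Ngp were lower, 6 macrophage markers were lower and 2 higher (Cd14 by 2.19). In the same comparison 7 of 8 cycling genes were lower (Rrm2 by −1.45), where 20.9% of all genes were called. The part of these other cell types in the levels of the 10 genes was not tested.

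**Figure D5:**
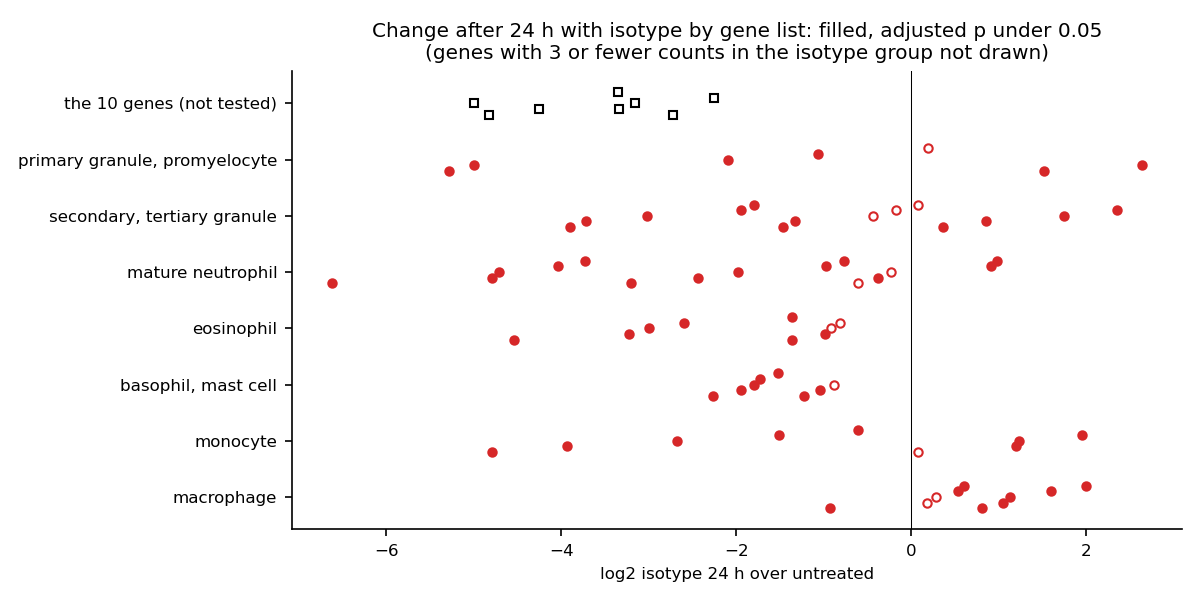
Log2 difference of isotype at 24 h from untreated, 1 point a gene, for the 10 genes (open squares, not tested) and for 7 lists of other genes (filled where edgeR's adjusted p was under 0.05); genes with 3 or fewer counts in the isotype group are not drawn. All eosinophil, basophil and mast cell markers drawn lie below 0, and all macrophage markers drawn but Cd14 (−0.92) lie above it.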

How the data were processed

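Single-end RNA-seq libraries were made from total RNA with a TruSeq kit, per the labels' protocols. The authors deposited estimated counts per gene, and the submitters' processing notes name CASAVA 1.8.2, kallisto 0.44.0, DESeq2 and the builds mm10 and GRCm38, without roles. A second deposited table holds normalized values, a signal scaled between libraries by the authors, and was used only as an alternative. Its totals do not give depth.

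Estimated counts were rounded and fitted with edgeR 4.0.16 (R 4.3.3) in one quasi-likelihood model of the 7 groups, with TMM scaling, filterByExpr (minimum count 10) and Benjamini-Hochberg adjustment over 13468 genes, called at 0.05. Levels in the text are CPM scaled by TMM library sizes. The fit was tested on simulated counts for FcMR against isotype at 24 h. It recovered 64% of 100 genes changed 2-fold and 97% of 100 genes changed 4-fold, with 4 false calls. The changed genes had a mean of at least 10 counts and no GC tilt was simulated. These figures therefore do not cover genes with few counts or libraries that differ in GC tilt. Column names carry the library number that opens each title, and 0 columns were left unmapped. Symbols and positions come from GENCODE M21 and promoters from RefSeq, both on GRCm38. Of 23250 genes 23187 matched a symbol.

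The 10 genes and all lists of other genes were chosen with earlier results of these data known. From each list the text names the called genes that moved most in either direction, plus a few (Ly6g, Cebpe, Lcn2, Prg2, S100a6 between FcMR and isotype, Tlr4) chosen after their values were seen. A few genes that this rule names are not reported here. For likeness it names the 3 genes with the highest r. Intervals cover counting error only, and the floor is 3 counts. Alternatives were other scaling (RLE), filters, DESeq2 1.42.0, limma 3.58.1 on log2(normalized value + 1), only the libraries compared, a replicate block, a correction for transcript GC content in 20 bins, and leaving out libraries.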

Additional observations from a re-analysis of the deposited data

Results flagged for a closer look

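The effect of FcMR on Ltf differed between times. It was 0.40 on the log2 scale at 4 h, −0.71 at 12 h and −2.27 at 24 h, and the edgeR test of a difference among the 3 effects gave an adjusted p of 0.0007605 over all tested genes. At 4 h all 3 FcMR libraries were above all 3 isotype libraries, and at 12 h and 24 h all 3 were below.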

How the results depend on the processing

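Of 747 values of the 10 genes against isotype under the alternatives, 679 kept direction and side of the threshold, 8 lost the call, 22 gained one and 38 changed sign or reached 0. Of 1275 values against untreated cells or over time, 62 moved by more than the spread. Of the 1275, 12 had the other sign, all for differences near 0 at 4 h: 8 for Camp with FcMR (up to 0.11) and 4 for S100a8 with isotype (up to 0.045). The causes were not tested.

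Genes of the 10 called at 4 h numbered 1 under DESeq2, limma, the replicate block or the GC correction with replicate block. With limma this gene was Ltf (0.96, adjusted p = 0.0038), and in the other settings it was Camp. They numbered 2 without both libraries with numbers out of order. At 12 h they numbered 0 with only the libraries compared or without both, and 3 with the GC correction and replicate block. Ltf at 12 h was called with limma (−0.64, adjusted p = 0.0489). It was also called by edgeR with the GC correction and replicate block (−0.68, adjusted p = 0.0376). In the joint test the genes called numbered 2 under DESeq2, the replicate block, the GC correction or without both, and 3 with the GC correction and replicate block. Leaving out 1 library gave 0 to 1 at 4 h, 0 to 1 at 12 h, 2 to 4 at 24 h and 1 to 2 in the joint test. Whether replicate numbers pair the libraries is not given in the labels. Correlations of same-numbered deviations between FcMR and isotype ran from −0.166 to 0.199, and low values do not exclude pairing. The replicate block lost no call at 24 h.

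Of all genes, 2390 were called at 4 h, against 868 with only the libraries compared, 3601 with the GC correction, 3739 with that and the replicate block and 3898 without both libraries. At 12 h 2169 were called, against 3370 with the GC correction and replicate block. The joint test called 1484, against 925 with no filter, 969 with limma, 2725 with the GC correction, 2907 with that and the replicate block and 2616 without both. Leaving out 1 library gave 1589 to 3151 at 4 h and 973 to 2294 in the joint test. The GC correction with replicate block called 2 eosinophil markers lower at 24 h, in place of 1.

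Signs that changed belonged to differences near 0 or to few counts. At 4 h S100a8 was 0.048 with no filter, 0.011 with limma, 0.067 with the GC correction and 0.065 with the replicate block added, and S100a9 was 0.021 with no filter. Elane was 0.072 with RLE, 0.107 with no filter, 0.073 with DESeq2, 0.442 with limma, 0.015 with the replicate block, 0.036 with the GC correction and 1.27 without both. Mpo was 0.061 with RLE, 0.113 with no filter, 0.062 with DESeq2, 0.156 with limma, 0.000426 with the replicate block and 0.176 without both. At 12 h without both, Ngp was −0.121 and S100a9 −0.094, and in the joint test Crisp3 was −0.016 with limma. Leaving out 1 library gave −0.164 to 0.139 for S100a8 at 4 h, −0.172 to 0.104 for S100a9, −0.446 to 1.261 for Elane and −0.249 to 0.174 for Mpo. At 12 h it gave −0.126 to 0.318 for Ngp, −0.094 to 0.379 for S100a9, −1.248 to 0.557 for Crisp3 and −0.065 to 0.777 for Retnlg. At 24 h it gave −2.990 to 0.000 for Elane and −2.636 to 0.048 for Prtn3, and in the joint test −0.475 to 0.163 for Camp and −0.289 to 0.044 for S100a9.

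The called difference of Ltf at 24 h ran from −2.62 to −1.94 and that of S100a8 from 0.59 to 0.72 over the alternatives, each called in all. The S100a8 call at 12 h was also lost with limma (adjusted p = 0.0673) and with only the libraries compared (0.144). The ratio of S100a8 to S100a9 from the normalized table, an alternative added after seeing the data, differed by less than 1 SD. Depth limits Elane, Mpo, Prtn3, Crisp3 and Retnlg at 12 h and 24 h, where 3 counts are up to 0.449 CPM.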
